A study of Mus musculus with 16 samples.

Results

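P-III cells of the spleen were compared with type 2 conventional dendritic cells (cDC2s) of the spleen, both sorted from C57BL/6 mice given granulocyte-macrophage colony-stimulating factor (GM-CSF). The comparison used 4 of the 16 mRNA sequencing libraries of the study, 2 of P-III and 2 of GM-CSF cDC2s, and the members are the genes tested between them. P-III was sorted as CD11b+ CD115hi Ly6C- MHC II+ CD301b- splenocytes, which the study regards as a stage before the GM-CSF-induced dendritic cells. GM-CSF cDC2s were sorted as CD11chi MHC II+ XCR1- 33D1+ splenocytes. All mice were at postnatal week 12, and the mice of both groups had received GM-CSF by 3 once-daily injections, so the comparison is between 2 populations under the same treatment. It does not measure the effect of GM-CSF itself, and a response of 1 population to GM-CSF cannot be told apart from a difference between the populations. The other libraries enter the fit and are quoted only to place a gene: P-I (CD115hi Ly6C+ classical monocytes), P-IV (CD115hi Ly6C- MHC II+ CD301b+ cells) and DC-Xs (CD11chi MHC II+ XCR1- 33D1- cells, mostly P-IV with a minor part of P-III), all from GM-CSF-treated mice, and control cDC2s from untreated mice of the same strain and age. Each population has 2 libraries from separate mice, and p-values measure the spread between such libraries, pooled over all 8 groups. Each population is what its gate holds and may not be 1 pure cell type.

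Conventional dendritic cells arise from a bone marrow precursor under the growth factor FLT3L and express the transcription factor ZBTB46. The splenic cDC2s marked by ESAM, CD4 and the lectin DCIR2 (the 33D1 antigen, gene Clec4a4) depend on Notch2 signalling and present antigen to CD4+ T cells. Classical monocytes express CCR2, take up material through Fc and scavenger receptors, and can become cells with MHC class II and dendritic features during inflammation or under GM-CSF. Both kinds of cell therefore carry MHC class II, and the question put to the data was how far a CD115hi MHC II+ population differs from a cDC2 in the same spleen.

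Of the 24532 genes in the table, 11335 had a value of at least 1 in 2 or more of the 16 libraries and were tested. Levels are given as FPKM, fragment numbers corrected for the length of the transcript and the yield of the library. The FPKM total was 504104 and 508963 in P-III, against 450897 and 476345 in GM-CSF cDC2s, and 9793 and 9852 genes in P-III, against 10134 and 9731 in GM-CSF cDC2s, reached an FPKM of 1. The SD between replicates over all genes tested was 0.19 on the log2 scale in P-III and 0.42 in GM-CSF cDC2s. Across genes, P-III libraries correlated with those of P-IV at a mean r of 0.986, P-I at 0.968, DC-Xs at 0.955 and GM-CSF cDC2s at 0.885. Each value is the mean over pairs of single libraries. These correlations are over genes, which are not independent replicates, and carry no p.

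The genes of the sort gates were read first as a check of the labels and not as findings. Csf1r, which encodes CD115, had 517 and 432 FPKM in P-III, against 36.3 and 39.6 FPKM in GM-CSF cDC2s. Clec4a4 had 8.24 and 9.45 FPKM in P-III, against 77.5 and 72.2 FPKM in GM-CSF cDC2s. Both genes separated the groups in the direction of the gates. Mgl2, the CD301b gene, had 50.4 and 64.1 FPKM in P-III, against 2.70 and 1.14 FPKM in GM-CSF cDC2s, and the level was 773 and 803 FPKM in P-IV. The P-III libraries thus lay well below P-IV and above the cDC2s for the gene whose protein was gated out. Ly6c2 had 8.16 and 14.5 FPKM in P-III, against 1.97 and 2.05 FPKM in GM-CSF cDC2s, and the level was 374 and 803 FPKM in P-I. Itgam (CD11b), Itgax (CD11c) and H2-Ab1 (MHC class II) did not pass the call rule, at log2 fold changes of 0.64, 0.12 and 0.28. Xcr1 was under 1 FPKM in all 4 libraries, and Ly6c1 had 0.433 and 0.604 FPKM in P-III, against 0 and 0.0578 FPKM in GM-CSF cDC2s.

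The call rule was an adjusted p (limma, Benjamini-Hochberg) under 0.05 together with a log2 fold change of size 1 or more on the log2(FPKM + 1) scale. By this rule 1878 genes were called, 16.6% of those tested. Of these, 887 genes (7.83%) were higher and 991 genes (8.74%) were lower in P-III. The median log2 fold change of all genes tested was -0.07. The P-III and cDC2 libraries did not overlap for any of the 1878 genes called. Of all genes tested 67.5% were free of overlap, 31% with P-III higher and 36.5% with P-III lower. List counts below stand beside these shares of all genes tested, 7.83% called higher, 8.74% called lower and 67.5% free of overlap. At a log2 fold change of 3 or more there were 126 genes higher in P-III, against 58 genes at -3 or less. The sorts hold bulk RNA, so fewer cells of a type and less RNA per cell cannot be told apart. Under the same rule P-III differed from P-I in 398 genes (3.51%) and from P-IV in 67 genes (0.591%). The SD between replicates was 0.22 in P-I and 0.14 in P-IV, below 0.36 in DC-Xs and 0.42 in both cDC2 groups. As the spread was pooled over all 8 groups, these counts may be too low to set beside the 1878 genes.

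**Figure D1:**
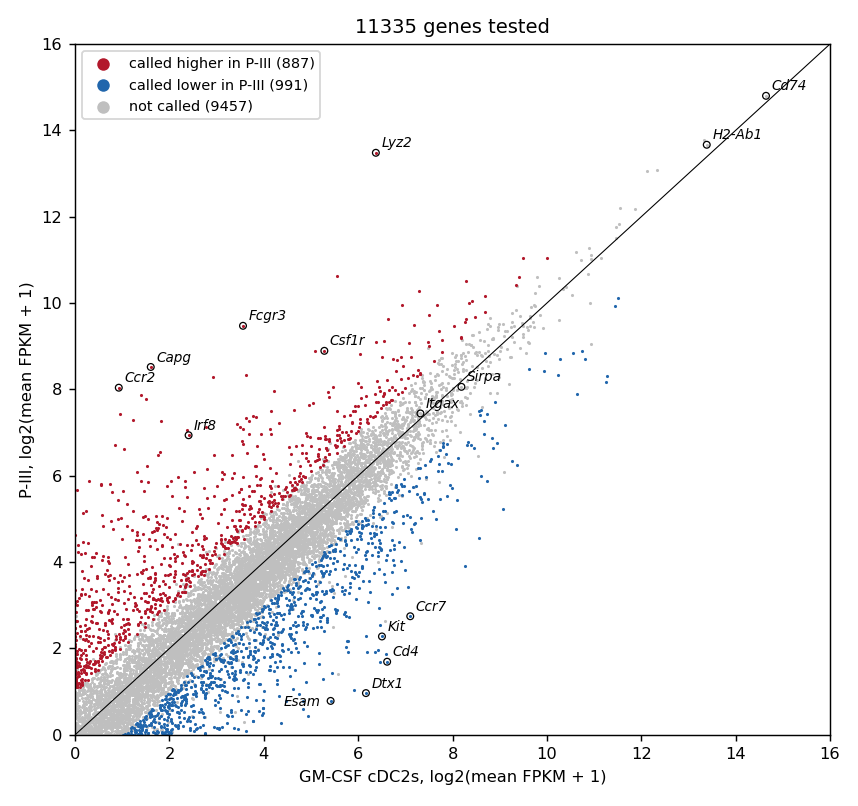
Level of each gene tested in P-III (y axis) against GM-CSF cDC2s (x axis), both as log2(mean FPKM + 1) over 2 libraries, with the line of equal levels. Red points are the 887 genes called higher and blue points the 991 genes called lower in P-III, grey points were not called, and circles mark genes named beside them, with Lyz2 and Ccr2 far above the line, Dtx1 and Esam far below it and Cd74 and H2-Ab1 close to it.

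The largest differences in favour of P-III included genes known from monocytes. Ccr2, the receptor for the monocyte chemoattractant CCL2, had 262 and 262 FPKM in P-III, against 1.23 and 0.566 FPKM in GM-CSF cDC2s. The P-III libraries were level with each other and stood far above both cDC2 libraries (log2 fold change 7.14 ± 0.35 (SE), limma adjusted p 8.87e-08). Its levels were 247 and 269 FPKM in P-I and 226 and 249.8 FPKM in P-IV, so it did not separate the CD115hi populations. Lyz2, lysozyme of myeloid cells and among the most abundant transcripts of P-III, had 12444 and 10405 FPKM in P-III, against 100.2 and 63.7 FPKM in GM-CSF cDC2s. Again the groups were far apart (log2 fold change 7.14 ± 0.34 (SE), limma adjusted p 7.78e-08). Lyz1, a neighbouring and near-identical copy, followed at 111 and 97.6 FPKM in P-III, against 1.02 and 0.550 FPKM in GM-CSF cDC2s. The ratio of Lyz2 to Lyz1 was 112 and 107 in P-III, against 98.0 and 116 in GM-CSF cDC2s, and reads of the 2 copies may have been shared between them, so the Lyz1 value is uncertain.

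Cytoskeletal and secreted products were also among the 12 genes with the largest increases. Capg, an actin filament capping protein of macrophages, had 361 and 370.2 FPKM in P-III, against 2.08 and 1.99 FPKM in GM-CSF cDC2s. Both P-III libraries were above both cDC2 libraries by more than 2 orders of magnitude (log2 fold change 6.92 ± 0.32 (SE), limma adjusted p 7.78e-08). Tppp3, of the tubulin polymerization-promoting family, had 216 and 249.5 FPKM in P-III, against 2.53 and 0.768 FPKM in GM-CSF cDC2s. Pdlim1, a PDZ and LIM domain adaptor of the actin cytoskeleton, had 167 and 173 FPKM in P-III, against 1.20 and 0.657 FPKM in GM-CSF cDC2s. The log2 fold changes of Tppp3 and Pdlim1 were 6.54 and 6.49, with limma adjusted p 5.11e-07 and 2.15e-08. Absence of overlap between the groups was required of these 12 genes and of the 12 largest decreases, so it is not a result. Chil3, which encodes the chitinase-like protein Ym1, had 245 and 195 FPKM in P-III, against 1.86 and 1.81 FPKM in GM-CSF cDC2s. It graded over the CD115hi populations, with 938 and 619 FPKM in P-I and 32.6 and 41.3 FPKM in P-IV, and P-III was called higher than P-IV, a contrast in which 0.318% of genes were called higher. Ms4a6d, a tetraspan membrane protein of the MS4A family, had 151 and 161 FPKM in P-III, against 1.65 and 1.06 FPKM in GM-CSF cDC2s. Galnt9, an enzyme that starts O-linked glycosylation, had 55.8 and 44.4 FPKM in P-III, against 0 and 0.0475 FPKM in GM-CSF cDC2s. Both Galnt9 and Ms4a6d were uniform in P-III and near the floor of the table in cDC2s. Ecm1, extracellular matrix protein 1, had 112 and 83.5 FPKM in P-III, against 1.42 and 0.660 FPKM in GM-CSF cDC2s, and Ptgir, the receptor for prostacyclin, had 56.1 and 59.99 FPKM in P-III, against 0.346 and 0.107 FPKM in GM-CSF cDC2s. Both of these were also at least at 27.4 FPKM in every P-I and P-IV library.

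In the other direction, 5 of the 12 largest decreases were genes of the cDC2 identity list, which was chosen with earlier results of these data known. Dtx1, a Notch target that encodes the ubiquitin ligase Deltex 1, had 0.789 and 1.12 FPKM in P-III, against 73.7 and 67.6 FPKM in GM-CSF cDC2s. The P-III libraries were close to the floor (log2 fold change -5.20 ± 0.30 (SE), limma adjusted p 2.91e-07). The level was higher still, 175 and 226 FPKM in control cDC2s. Cd4, the coreceptor that marks most splenic cDC2s, had 1.67 and 2.79 FPKM in P-III, against 130.2 and 63.5 FPKM in GM-CSF cDC2s. The 2 cDC2 libraries were about 2-fold apart, and both lay far above P-III (log2 fold change -4.85 ± 0.35 (SE), limma adjusted p 1.3e-06). Esam, an adhesion molecule that names the Notch2-dependent cDC2s, had 0.766 and 0.680 FPKM in P-III, against 44.0 and 39.3 FPKM in GM-CSF cDC2s. Here the replicates were close in both groups (log2 fold change -4.63 ± 0.32 (SE), limma adjusted p 9.83e-07). Cdh17, a cadherin, had 0.233 and 0.465 FPKM in P-III, against 20.9 and 38.7 FPKM in GM-CSF cDC2s, and Gp2, a membrane glycoprotein known as an uptake receptor for bacteria on M cells, had 1.68 and 2.76 FPKM in P-III, against 47.3 and 128 FPKM in GM-CSF cDC2s. Gp2 and Cdh17 separated P-III from the cDC2s (log2 fold change -4.64 ± 0.45 (SE), limma adjusted p 1.17e-05 for Gp2) and were also called higher in GM-CSF than in control cDC2s, at log2 fold changes of 3.42 (limma adjusted p 0.000999) and 1.31 (limma adjusted p 0.0221), a comparison in which 5.28% of genes were called, 3.21% higher and 2.06% lower. Their gap to P-III therefore includes the level that treated cDC2s had reached, and the level of Gp2 was 4.50 and 8.80 FPKM in control cDC2s.

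The other 7 of the 12 had varied roles. Mreg, which encodes melanoregulin, a protein of organelle transport, had 1.002 and 1.12 FPKM in P-III, against 70.2 and 47.9 FPKM in GM-CSF cDC2s. Tbc1d4, a GTPase-activating protein for Rab proteins in vesicle traffic, had 2.75 and 2.58 FPKM in P-III, against 109.7 and 79.5 FPKM in GM-CSF cDC2s. Ube2e2, a ubiquitin-conjugating enzyme, had 2.95 and 2.82 FPKM in P-III, against 82.8 and 86.9 FPKM in GM-CSF cDC2s. In these 3 genes both P-III libraries were under 3 FPKM and both cDC2 libraries above 47 FPKM. Fam46c, a non-canonical poly(A) polymerase, had 1.51 and 4.10 FPKM in P-III, against 106 and 56.8 FPKM in GM-CSF cDC2s. Asb2, a substrate adaptor of a ubiquitin ligase, had 17.4 and 10.8 FPKM in P-III, against 273 and 339.8 FPKM in GM-CSF cDC2s. Asb2 was called higher in P-III than in P-I (its level was 1.65 and 0.847 FPKM in P-I), a contrast in which 0.979% of genes were called higher. Ppp1r14a, an inhibitor of myosin phosphatase, had 2.53 and 2.97 FPKM in P-III, against 84.3 and 58.3 FPKM in GM-CSF cDC2s, and it was listed at 0 in both P-I libraries. Ccr7, the receptor that guides dendritic cells to T cell zones, had 4.40 and 7.02 FPKM in P-III, against 161 and 112 FPKM in GM-CSF cDC2s. Ccr7 was lower in treated than in control cDC2s, with 423 and 589.7 FPKM in control cDC2s, and lower still in P-III (log2 fold change -4.36 ± 0.51 (SE), limma adjusted p 5.49e-05). All 24 genes in the plot of the largest changes were called whichever of the 4 libraries was left out.

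**Figure D2:**
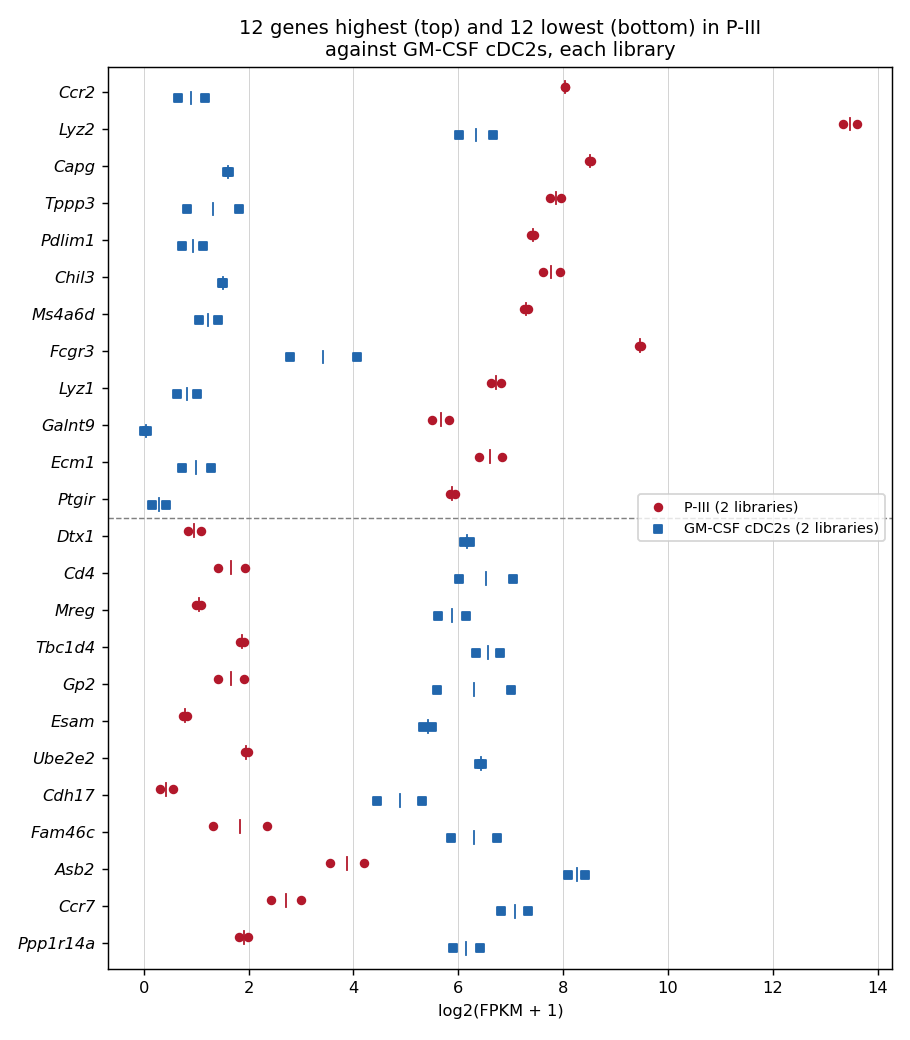
Level as log2(FPKM + 1) in each library of P-III (red circles) and GM-CSF cDC2s (blue squares) for the 12 genes with the largest increases (top) and the 12 with the largest decreases (bottom) in P-III, with a short line at the mean of each group. For every one of the 24 genes both points of 1 group lie beyond both points of the other, as the rule that chose them required.

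The 150 bases before the start of 6 of these genes are printed because their transcripts moved together in opposite directions between 2 cell types in which the factors named here are known to act. They were taken from RefSeq (mouse build GRCm38.p6, the assembly also called mm10), which held a window for 18 of the 24 genes. Each is written 5′ to 3′ on the strand of the gene, with the matches in capitals. Ccr2 lies on the plus strand at chr9:124102033-124102182, Lyz2 on the minus strand at chr10:117282273-117282422, Capg on the plus strand at chr6:72549497-72549646 and Fcgr3, which encodes the IgG receptor CD16, on the minus strand at chr1:171059404-171059553. Dtx1 lies on the minus strand at chr5:120711670-120711819 and Gp2 on the minus strand at chr7:119459273-119459422.
Ccr2: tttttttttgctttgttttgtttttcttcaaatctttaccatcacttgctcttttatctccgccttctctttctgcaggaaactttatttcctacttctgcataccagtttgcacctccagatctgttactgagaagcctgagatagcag
Lyz2: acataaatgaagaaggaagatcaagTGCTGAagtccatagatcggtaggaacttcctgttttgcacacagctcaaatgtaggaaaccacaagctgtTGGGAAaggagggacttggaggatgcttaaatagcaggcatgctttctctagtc
Capg: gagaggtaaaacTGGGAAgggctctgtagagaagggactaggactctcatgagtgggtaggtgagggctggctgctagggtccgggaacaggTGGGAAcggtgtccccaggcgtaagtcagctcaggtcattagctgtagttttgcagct
Fcgr3: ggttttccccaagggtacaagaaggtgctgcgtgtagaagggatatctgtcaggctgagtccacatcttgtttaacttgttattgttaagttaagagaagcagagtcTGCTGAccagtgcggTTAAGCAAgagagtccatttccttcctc
Dtx1: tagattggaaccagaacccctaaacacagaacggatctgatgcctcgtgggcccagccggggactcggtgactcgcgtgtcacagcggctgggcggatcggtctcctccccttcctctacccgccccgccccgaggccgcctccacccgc
Gp2: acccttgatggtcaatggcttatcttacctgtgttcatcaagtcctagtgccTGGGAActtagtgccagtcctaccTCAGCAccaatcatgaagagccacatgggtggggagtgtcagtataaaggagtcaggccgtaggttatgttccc

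Motifs were searched on both strands as fixed letters: TGGGAA (the core bound by RBPJ, the Notch effector), GGAA and GAAA with any 2 bases between them (a PU.1 and IRF composite), GAGGAAGT (PU.1), TTGCNNAA (C/EBP), TGCTGA (a short MAF motif) and TGANTCA (AP-1). Windows of Ccr2 and Dtx1 held none of the 6 motifs. Lyz2 held a MAF motif 125 bases and an RBPJ core 54 bases before the start, Capg held RBPJ cores at 138 and 58 bases, and Fcgr3 held a MAF motif at 43 bases and a C/EBP match at 28 bases. Gp2 held an RBPJ core at 98 bases and a MAF motif at 74 bases. Over the 9009 genes tested that had a window, 12.2% held TGGGAA, 4.1% TTGCNNAA, 7.22% TGCTGA, 2.52% TGANTCA, 2.09% GAGGAAGT and 1.14% the PU.1 and IRF composite. Among the 685 such genes called higher in P-III the shares were 13.7%, 7.15%, 9.49%, 5.84%, 2.48% and 1.75% in the same order of motifs. For the 776 genes called lower they were 9.79%, 3.48%, 9.02%, 2.84%, 2.58% and 1.16%. A match is a description of letters and not a site, and no test was made of these shares.

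Genes of the cDC2 identity list were mostly lower in P-III, with exceptions among the transcription factors. The list was chosen with earlier results of these data known, and its counts and median include the gate gene Clec4a4. In the cDC2 identity list 1 of 14 genes tested were called higher and 9 lower in P-III, with a median log2 fold change of -3.62, beside -0.07 for all genes tested. Besides Dtx1, Cd4, Esam, Cdh17, Gp2 and the gate gene Clec4a4, the genes lower in P-III were Cd7, a surface receptor shared with T and NK cells, Tbx21, the transcription factor T-bet, and Adam23. Cd7 had 23.9 and 20.8 FPKM in P-III, against 373 and 376 FPKM in GM-CSF cDC2s. Tbx21 had 0.503 and 0.553 FPKM in P-III, against 16.5 and 13.3 FPKM in GM-CSF cDC2s, and Adam23, a membrane protein related to metalloproteases, had 3.17 and 2.34 FPKM in P-III, against 53.2 and 54.6 FPKM in GM-CSF cDC2s. Each of these 3 genes was uniform within both groups (log2 fold changes -4.01, -3.37 and -3.88, with limma adjusted p 3.5e-07, 1.27e-06 and 5.19e-07). Irf4, a transcription factor on which cDC2s depend, had 14.2 and 10.1 FPKM in P-III, against 10.1 and 9.54 FPKM in GM-CSF cDC2s, and the groups overlapped. Notch2 and Rbpj, the receptor and nuclear effector of the Notch pathway, also did not pass the rule, at log2 fold changes of 0.89 and 0.41. The 1 gene of the list that rose, Olfm1, a secreted glycoprotein, had 355 and 389 FPKM in P-III, against 107 and 139 FPKM in GM-CSF cDC2s. Olfm1 was itself much higher in GM-CSF than in control cDC2s (log2 fold change 4.21 ± 0.23 (SE), limma adjusted p 1.59e-06), with 4.94 and 6.41 FPKM in control cDC2s.

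Genes shared by conventional dendritic cells were partly lower. In the pan-cDC list 1 of 16 genes tested were called higher and 8 lower in P-III, with a median log2 fold change of -0.99. Zbtb46, the transcription factor that separates cDCs from other myeloid cells, had 13.99 and 14.3 FPKM in P-III, against 62.4 and 71.8 FPKM in GM-CSF cDC2s. It was lower in P-III but not absent (log2 fold change -2.17 ± 0.28 (SE), limma adjusted p 0.000112). Flt3, the receptor for FLT3L, had 19.2 and 12.1 FPKM in P-III, against 103 and 85.8 FPKM in GM-CSF cDC2s, and Kit, the stem cell factor receptor of early precursors and some cDC2s, had 4.69 and 3.004 FPKM in P-III, against 69.1 and 110.3 FPKM in GM-CSF cDC2s. Both receptors were lower in each P-III library than in each cDC2 library (log2 fold change -2.55 ± 0.23 (SE), limma adjusted p 7.65e-06 for Flt3 and log2 fold change -4.21 ± 0.35 (SE), limma adjusted p 4.08e-06 for Kit). Relb, an NF-kB subunit on which cDC2s depend, had 47.0 and 45.8 FPKM in P-III, against 139.9 and 163 FPKM in GM-CSF cDC2s. Batf3, a transcription factor of cDC1s that is expressed in most cDCs, was at a log2 fold change of 0.63 and did not pass the rule. Cd83, an activation marker, had 29.1 and 55.7 FPKM in P-III, against 429 and 116.4 FPKM in GM-CSF cDC2s, differed almost 4-fold between the cDC2 libraries, and was not called without P-III replicate 1 or GM-CSF cDC2s replicate 1 (log2 fold changes -1.99 and -1.51, limma adjusted p 0.158 and 0.196). Nav1, a microtubule-associated protein, was not called without P-III replicate 1, P-III replicate 2 or GM-CSF cDC2s replicate 1 (log2 fold changes -1.09, -1.07 and -0.82, limma adjusted p 0.141, 0.153 and 0.218). Spib, a transcription factor related to PU.1, was not called when any 1 of the 4 libraries was left out (log2 fold changes -1.16, -1.21, -1.25 and -1.12, limma adjusted p 0.146, 0.131, 0.0962 and 0.121). The count of pan-cDC genes lower in P-III was thus 5 without P-III replicate 1.

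**Figure D3:**
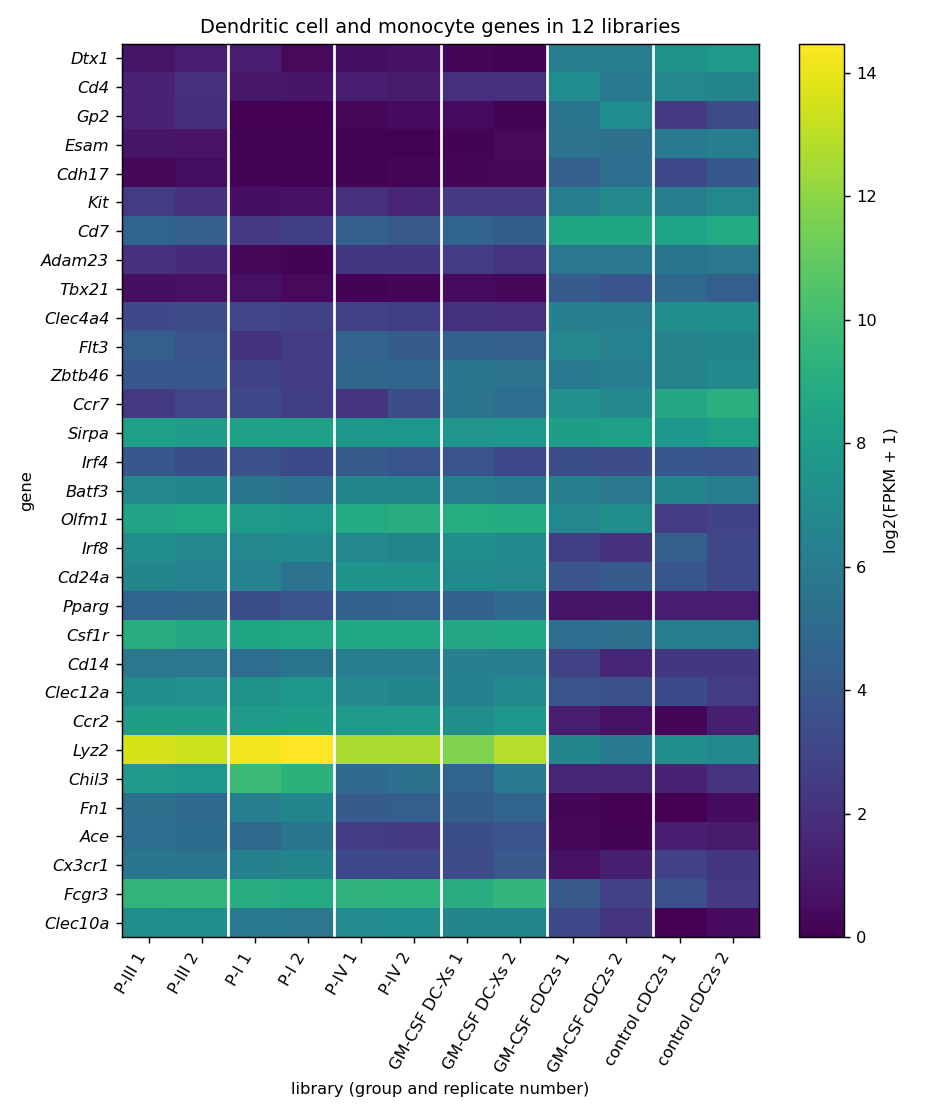
Level as log2(FPKM + 1), shown by colour, of dendritic cell and monocyte genes (rows) in each library (columns) of P-III, P-I, P-IV, DC-Xs, GM-CSF cDC2s and control cDC2s. Dtx1, Esam, Cd4 and Tbx21 are dark in P-III and light in both cDC2 groups, Ccr2, Fcgr3 and Irf8 are the reverse, and Olfm1 is dark in control cDC2s alone.

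A transcription factor of cDC1s and monocytes, Irf8, stood out against Irf4. Irf8 had 135 and 108 FPKM in P-III, against 5.40 and 3.19 FPKM in GM-CSF cDC2s. Both P-III libraries lay far above both cDC2 libraries (log2 fold change 4.56 ± 0.37 (SE), limma adjusted p 3.1e-06). Similar levels were found in the other CD115hi cells, 109 and 119.5 FPKM in P-I and 106 and 92.1 FPKM in P-IV, and the level was far higher, 1718 and 1684 FPKM in GM-CSF cDC1s. The ratio of Irf8 to Irf4 was 9.50 and 10.7 in P-III, against 0.537 and 0.334 in GM-CSF cDC2s. In treated cDC2s Irf8 was called lower than in control cDC2s (log2 fold change -1.42 (limma adjusted p 0.0376)), with 20.6 and 7.85 FPKM in control cDC2s. In the cDC1 list 5 of 13 genes tested were called higher and 1 lower in P-III, with a median log2 fold change of 0.19. Naaa, an N-acylethanolamine-hydrolysing enzyme, had 437 and 460.4 FPKM in P-III, against 60.2 and 69.4 FPKM in GM-CSF cDC2s, Cd24a, a surface glycoprotein, had 97.6 and 83.1 FPKM in P-III, against 13.3 and 16.4 FPKM in GM-CSF cDC2s, and Rab7b, a late endosomal GTPase, had 17.996 and 17.97 FPKM in P-III, against 1.84 and 1.21 FPKM in GM-CSF cDC2s. These 3 genes were called whichever library was left out. Clec9a, the receptor for dead cells on cDC1s, was at 1.93 and 1.63 FPKM in P-III and listed at 0 in both GM-CSF cDC2 libraries. Wdfy4, which cDC1s need for cross-presentation, was the 1 gene lower in P-III, with 6.02 and 4.96 FPKM in P-III, against 54.4 and 24.005 FPKM in GM-CSF cDC2s.

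Markers of classical monocytes were higher in P-III in the majority, although P-III was sorted as Ly6C-. In the classical monocyte list 10 of 16 genes tested were called higher and 1 lower in P-III, with a median log2 fold change of 1.55. Besides Ccr2 and Chil3, Fn1, which encodes fibronectin, had 38.9 and 29.9 FPKM in P-III, against 0.205 and 0.0385 FPKM in GM-CSF cDC2s. Mgst1, a microsomal glutathione transferase, had 11.1 and 12.9 FPKM in P-III, against 0.672 and 0.649 FPKM in GM-CSF cDC2s, and S100a4, a calcium-binding protein, had 418 and 442 FPKM in P-III, against 134 and 140.5 FPKM in GM-CSF cDC2s. All 3 were separated between the groups (log2 fold changes 4.97, 2.96 and 1.64, with limma adjusted p 1.08e-07, 6.72e-05 and 0.000478). F13a1, coagulation factor XIII subunit A, was at 9.51 and 8.91 FPKM in P-III and listed at 0 in both cDC2 libraries. Plac8 was not called without P-III replicate 1, P-III replicate 2 or GM-CSF cDC2s replicate 1 (log2 fold changes 1.65, 1.25 and 1.14, limma adjusted p 0.0772, 0.184 and 0.188). The gate gene Ly6c2 was not called without P-III replicate 2, GM-CSF cDC2s replicate 1 or GM-CSF cDC2s replicate 2 (log2 fold changes 1.61, 1.97 and 2.005, limma adjusted p 0.148, 0.0734 and 0.0652). The 1 gene lower was S100a8, a subunit of the alarmin of neutrophils and classical monocytes. It was listed at 0 in both P-III libraries, so no fold is given, and had 1.86 and 1.72 FPKM in GM-CSF cDC2s. S100a8 was not called without P-III replicate 1, P-III replicate 2 or GM-CSF cDC2s replicate 1.

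In the non-classical monocyte list 8 of 16 genes tested were called higher and 1 lower in P-III, with a median log2 fold change of 1.15. Cx3cr1, the fractalkine receptor, had 50.1 and 47.6 FPKM in P-III, against 0.656 and 1.40 FPKM in GM-CSF cDC2s. Ace, angiotensin-converting enzyme, had 37.8 and 33.2 FPKM in P-III, against 0.254 and 0.105 FPKM in GM-CSF cDC2s, and Cd36, a scavenger and fatty acid receptor, had 32.2 and 47.3 FPKM in P-III, against 1.74 and 0.537 FPKM in GM-CSF cDC2s. In each of the 3 genes both P-III libraries lay far above both cDC2 libraries (log2 fold changes 4.64, 4.95 and 4.28, with limma adjusted p 6.45e-07, 7.78e-08 and 3.82e-06). Ear2, an eosinophil-associated ribonuclease, had 75.0 and 71.6 FPKM in P-III, against 11.1 and 15.3 FPKM in GM-CSF cDC2s. Itgal, the alpha chain of LFA-1, had 87.9 and 73.3 FPKM in P-III, against 32.6 and 33.2 FPKM in GM-CSF cDC2s. Both were called in every combination with 1 library left out. Pglyrp1, a peptidoglycan recognition protein, was lower in P-III, with 16.9 and 14.5 FPKM in P-III, against 55.8 and 85.5 FPKM in GM-CSF cDC2s (log2 fold change -2.07 ± 0.36 (SE), limma adjusted p 0.00103). Nr4a1, the nuclear receptor on which Ly6C- monocytes depend and also an immediate early gene, had 53.7 and 80.6 FPKM in P-III, against 926 and 164 FPKM in GM-CSF cDC2s and did not pass the rule (log2 fold change -2.55 ± 1.01 (SE), limma adjusted p 0.0875), although it did without GM-CSF cDC2s replicate 2 (log2 fold change -3.79, limma adjusted p 0.0368).

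Among transcription factors of monocyte and macrophage fate, 4 of 15 genes tested were called higher and 1 lower in P-III, with a median log2 fold change of 0.61. Pparg, the lipid-sensing nuclear receptor that GM-CSF induces in alveolar macrophages, had 24.4 and 27.6 FPKM in P-III, against 0.737 and 0.740 FPKM in GM-CSF cDC2s. The groups were far apart (log2 fold change 3.96 ± 0.25 (SE), limma adjusted p 4.57e-07). Cebpa, a factor of myeloid commitment, had 15.3 and 14.9 FPKM in P-III, against 5.07 and 4.26 FPKM in GM-CSF cDC2s, and was not called without P-III replicate 1 (log2 fold change 1.496, limma adjusted p 0.0502). Mitf, related to factors of lysosome genes, had 0.998 and 1.31 FPKM in P-III, against 0.0591 and 0.0871 FPKM in GM-CSF cDC2s, and was not called without P-III replicate 2 or GM-CSF cDC2s replicate 1 (log2 fold changes 0.90 and 0.98, limma adjusted p 0.0215 and 0.00932). Maf was under the filter and was not tested. Atf3, a stress-induced factor, was lower in P-III, with 169 and 308 FPKM in P-III, against 2308 and 876 FPKM in GM-CSF cDC2s, but was not called without P-III replicate 1 or GM-CSF cDC2s replicate 1 (log2 fold changes -2.20 and -1.94, limma adjusted p 0.0554 and 0.0523). The count lower in this list was 0 without P-III replicate 1 or GM-CSF cDC2s replicate 1 and 3 without GM-CSF cDC2s replicate 2.

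Surface receptors of monocytes and macrophages were higher or did not pass the rule. In that list 9 of 16 genes tested were called higher and 0 lower in P-III, with a median log2 fold change of 1.11. The 9 include the gate gene Csf1r, whose direction was set by the CD115hi gate. Cd14, the lipopolysaccharide coreceptor, had 52.6 and 53.0 FPKM in P-III, against 5.9999 and 2.07 FPKM in GM-CSF cDC2s. Adgre4, an adhesion receptor of Ly6C- monocytes, had 154 and 137 FPKM in P-III, against 12.3 and 7.15 FPKM in GM-CSF cDC2s, and Cd163, the haemoglobin scavenger receptor, had 9.38 and 8.50 FPKM in P-III, against 1.16 and 0.602 FPKM in GM-CSF cDC2s. All 3 genes were called with any library left out (log2 fold changes 3.54, 3.82 and 2.41, with limma adjusted p 2.38e-05, 2.72e-05 and 2.56e-05). Adgre1, which encodes F4/80, did not pass the rule, at -0.52. Mertk, the phagocytic receptor of tissue macrophages, was under the filter and was not tested.

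Fc receptors were raised almost as a whole family. Of the Fc receptor list 7 of 8 genes tested were called higher and 0 lower in P-III, with a median log2 fold change of 2.46. Fcgr3, the low-affinity activating IgG receptor whose promoter window is printed above, had 698 and 721 FPKM in P-III, against 15.7 and 5.90 FPKM in GM-CSF cDC2s. Fcgr2b, the inhibitory IgG receptor, had 974 and 1009 FPKM in P-III, against 140.3 and 102 FPKM in GM-CSF cDC2s. Both were well separated (log2 fold change 6.05 ± 0.53 (SE), limma adjusted p 5.2e-06 for Fcgr3 and log2 fold change 3.04 ± 0.24 (SE), limma adjusted p 2.96e-06 for Fcgr2b). The ratio of Fcgr3 to Fcgr2b was 0.717 and 0.714 in P-III, against 0.112 and 0.0577 in GM-CSF cDC2s. The extracellular parts of the 2 receptors are similar in sequence, and how reads that fit both were shared is not given in the sources used here. Fcgr2b was also called higher in GM-CSF than in control cDC2s, by 2.79 (limma adjusted p 7.5e-05). Fcer1g, the signalling chain of the activating receptors, had 1424 and 1474 FPKM in P-III, against 324 and 297 FPKM in GM-CSF cDC2s. Fcgr4, an activating receptor for IgG2, had 50.3 and 36.7 FPKM in P-III, against 7.14 and 4.71 FPKM in GM-CSF cDC2s. Fcrls, a secreted Fc receptor-like protein, had 15.7 and 19.3 FPKM in P-III, against 0.139 and 0.188 FPKM in GM-CSF cDC2s, and was lower in P-III than in P-IV, a contrast in which 0.273% of genes were called lower. Fcgr1, the high-affinity receptor, and Fcer2a were under 4 FPKM in every one of the 4 libraries, Fcgr1 being not called without P-III replicate 1, P-III replicate 2 or GM-CSF cDC2s replicate 2 (log2 fold changes 1.10, 1.11 and 0.99, limma adjusted p 0.0625, 0.0599 and 0.0643) and Fcer2a not called without P-III replicate 2 (log2 fold change 1.20, limma adjusted p 0.0662). Fcgrt, the neonatal Fc receptor, did not pass the rule, at 0.27.

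Scavenger and apoptotic cell receptors had the largest number of increases of any list. In that list 12 of 17 genes tested were called higher and 1 lower in P-III, with a median log2 fold change of 1.70. Msr1, the class A scavenger receptor, had 17.6 and 17.1 FPKM in P-III, against 0.0892 and 0.108 FPKM in GM-CSF cDC2s. Lrp1, a large endocytic receptor, had 23.6 and 20.6 FPKM in P-III, against 1.69 and 0.304 FPKM in GM-CSF cDC2s. Neither gene reached 2 FPKM in a cDC2 library (log2 fold change 4.06 ± 0.42 (SE), limma adjusted p 2.08e-05 for Msr1 and log2 fold change 3.62 ± 0.35 (SE), limma adjusted p 1.22e-05 for Lrp1). Pros1, protein S, a ligand that bridges apoptotic cells to TAM receptors, had 32.7 and 30.1 FPKM in P-III, against 2.70 and 3.01 FPKM in GM-CSF cDC2s, and Axl, a TAM receptor, had 28.3 and 29.7 FPKM in P-III, against 7.66 and 6.68 FPKM in GM-CSF cDC2s. Itgb5 and Itgav, the chains of the integrin that binds the bridging protein MFGE8, had 23.5 and 20.01 FPKM in P-III, against 1.34 and 1.77 FPKM in GM-CSF cDC2s and 7.07 and 6.91 FPKM in P-III, against 2.67 and 2.26 FPKM in GM-CSF cDC2s. Axl was not called when any 1 of the 4 libraries was left out (log2 fold changes 1.91, 1.84, 1.96 and 1.79, limma adjusted p 0.0788, 0.09, 0.0582 and 0.0788). Scarb1, a receptor for high-density lipoprotein, had 179 and 155 FPKM in P-III, against 46.0 and 55.8 FPKM in GM-CSF cDC2s, and Scarb2, a lysosomal membrane protein, had 29.8 and 30.8 FPKM in P-III, against 10.6 and 9.60 FPKM in GM-CSF cDC2s. The 1 decrease, Cd5l, with 0.990 and 1.78 FPKM in P-III, against 5.78 and 3.38 FPKM in GM-CSF cDC2s, was not called when any 1 of the 4 libraries was left out (log2 fold changes -0.97, -1.45, -0.90 and -1.53, limma adjusted p 0.263, 0.0893, 0.257 and 0.0532).

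Of the lectins of the DCIR and Dectin gene cluster 6 of 14 genes tested were called higher and 1 lower in P-III, with a median log2 fold change of 0.92. The 1 gene lower was Clec4a4, whose direction was set by the cDC2 gate. Clec7a, which encodes Dectin-1, the receptor for fungal beta-glucan, had 485 and 464 FPKM in P-III, against 50.8 and 14.8 FPKM in GM-CSF cDC2s. Clec12a, an inhibitory receptor for dead cells, had 149 and 158 FPKM in P-III, against 12.8 and 11.1 FPKM in GM-CSF cDC2s, and Clec4b1, a DCIR relative, had 116.9 and 129.8 FPKM in P-III, against 10.6 and 13.1 FPKM in GM-CSF cDC2s. Clec4a3, a close relative of Clec4a4, had 519.8 and 573 FPKM in P-III, against 85.3 and 78.2 FPKM in GM-CSF cDC2s. All 4 rose (log2 fold changes 4.05, 3.58, 3.28 and 2.73, with limma adjusted p 0.000109, 7.89e-07, 2.94e-05 and 5.61e-05). Clec4a3 exceeded Clec4a4 by 63.1 and 60.7 times in P-III, against 1.10 and 1.08 times in GM-CSF cDC2s. Clec4a4 set the cDC2 gate, and related sequences may share reads, so that ratio is a description.

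In the list of CD209, CD301 and mannose lectins 4 of 11 genes tested were called higher and 0 lower in P-III, with a median log2 fold change of 0.61. Clec10a, the CD301a gene next to the gate gene Mgl2, had 142 and 134 FPKM in P-III, against 8.07 and 3.66 FPKM in GM-CSF cDC2s. It was called higher (log2 fold change 4.42 ± 0.27 (SE), limma adjusted p 3.85e-07). Cd209d, a DC-SIGN relative, had 7.96 and 7.68 FPKM in P-III, against 1.55 and 0.776 FPKM in GM-CSF cDC2s, and Mrc1, the mannose receptor, had 6.46 and 6.09 FPKM in P-III, against 1.99 and 1.15 FPKM in GM-CSF cDC2s. Cd209d was lower in P-III than in P-IV, with 57.4 and 47.6 FPKM in P-IV.

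Toll-like receptors and their partners were higher in part. In the list 5 of 19 genes tested were called higher and 0 lower in P-III, with a median log2 fold change of 0.63. Tlr8, an endosomal receptor for RNA fragments, had 13.2 and 13.1 FPKM in P-III, against 0.722 and 0.486 FPKM in GM-CSF cDC2s, and Tlr11, which senses profilin of protozoa, had 22.3 and 21.7 FPKM in P-III, against 5.38 and 5.82 FPKM in GM-CSF cDC2s. Ly96 (MD-2), the partner of TLR4 in lipopolysaccharide sensing, had 19.6 and 20.3 FPKM in P-III, against 3.75 and 5.40 FPKM in GM-CSF cDC2s, while Tlr4 itself did not pass the rule, at 0.63. Ly86 (MD-1), the partner of CD180, had 536 and 586 FPKM in P-III, against 187 and 251 FPKM in GM-CSF cDC2s. The 4 increases were called with any library left out (log2 fold changes 3.14, 1.803, 1.93 and 1.37, with limma adjusted p 9.56e-06, 0.000567, 0.00338 and 0.00103).

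MHC class II presentation genes differed in both directions. Of the presentation list 4 of 18 genes tested were called higher and 5 lower in P-III, with a median log2 fold change of 0.15. The genes of the class II molecule and its invariant chain, H2-Aa, H2-Ab1, H2-Eb1 and Cd74, did not pass the rule, and their summed level was 57686 and 51988 FPKM in P-III, against 39652 and 50759 FPKM in GM-CSF cDC2s. Genes of the peptide editor H2-M did not move together, while both genes of its inhibitor H2-O were lower in P-III. H2-DMa, the alpha chain of H2-M, did not pass the rule, at 0.87, and H2-DMb2, given below, was lower. H2-DMb1, a beta chain of H2-M, had 1116 and 1182 FPKM in P-III, against 456 and 366 FPKM in GM-CSF cDC2s. H2-Oa, the alpha chain of H2-O, which restrains H2-M, had 60.7 and 55.3 FPKM in P-III, against 369 and 483 FPKM in GM-CSF cDC2s. H2-Ob, its beta chain, had 34.1 and 31.2 FPKM in P-III, against 130.02 and 114 FPKM in GM-CSF cDC2s. H2-DMb1 was higher and both inhibitor genes were lower in each P-III library (log2 fold change 1.49 ± 0.18 (SE), limma adjusted p 6.53e-05 for H2-DMb1, log2 fold change -2.84 ± 0.25 (SE), limma adjusted p 5.98e-06 for H2-Oa and log2 fold change -1.87 ± 0.18 (SE), limma adjusted p 1.02e-05 for H2-Ob).

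The proportions within the pathway were therefore unlike. H2-Oa relative to H2-DMa, the alpha chain of the editor, was 0.0742 and 0.0696 in P-III, against 0.916 and 1.01 in GM-CSF cDC2s. H2-Ob relative to H2-DMb1 was 0.0306 and 0.0264 in P-III, against 0.285 and 0.311 in GM-CSF cDC2s. For the first of these ratios P-I had 0.0483 and 0.0921, P-IV had 0.0818 and 0.0668, and control cDC2s had 1.15 and 1.26, so each CD115hi library lay below each cDC2 library. H2-DMb2, the second beta chain of H2-M and similar in sequence to H2-DMb1, had 428 and 398 FPKM in P-III, against 1161 and 1307 FPKM in GM-CSF cDC2s. H2-DMb2 relative to H2-DMb1 was 0.384 and 0.337 in P-III, against 2.54 and 3.57 in GM-CSF cDC2s. Reads shared between these 2 copies make their split uncertain. H2-Eb2, a little-studied class II beta gene, had 0.391 and 0.573 FPKM in P-III, against 11.9 and 8.86 FPKM in GM-CSF cDC2s.

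The other genes called higher in the presentation list were 3 enzymes. Ctss, cathepsin S, which trims the invariant chain, had 2109 and 2081 FPKM in P-III, against 703 and 727 FPKM in GM-CSF cDC2s. Ifi30, the lysosomal thiol reductase GILT, had 1011 and 1043 FPKM in P-III, against 261 and 389 FPKM in GM-CSF cDC2s, and Lgmn, the asparaginyl endopeptidase legumain, had 98.6 and 84.4 FPKM in P-III, against 33.6 and 24.03 FPKM in GM-CSF cDC2s. In all 3 both P-III libraries were above both cDC2 libraries (log2 fold change 1.55 ± 0.19 (SE), limma adjusted p 8.53e-05 for Ctss). Of regulators, Rfx5, a factor that binds class II promoters, had 5.34 and 5.72 FPKM in P-III, against 14.1 and 13.4 FPKM in GM-CSF cDC2s, and was not called without P-III replicate 1 (log2 fold change -1.13, limma adjusted p 0.0544). Ciita, the class II transactivator, did not pass the rule, at -0.76. In the lysosome list, which also holds Ctss and Lgmn, 9 of 27 genes tested were called higher and 0 lower in P-III, with a median log2 fold change of 0.74. Lamp1, a lysosomal membrane protein, had 678 and 625 FPKM in P-III, against 201 and 219 FPKM in GM-CSF cDC2s, Gusb, beta-glucuronidase, had 133 and 110.1 FPKM in P-III, against 42.3 and 51.8 FPKM in GM-CSF cDC2s, and Ctsc, the activator of granule proteases, had 239 and 268 FPKM in P-III, against 103 and 114.7 FPKM in GM-CSF cDC2s. Ctsd and Ctsb, abundant aspartic and cysteine cathepsins, did not pass the rule, at -0.32 and 0.29.

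**Figure D4:**
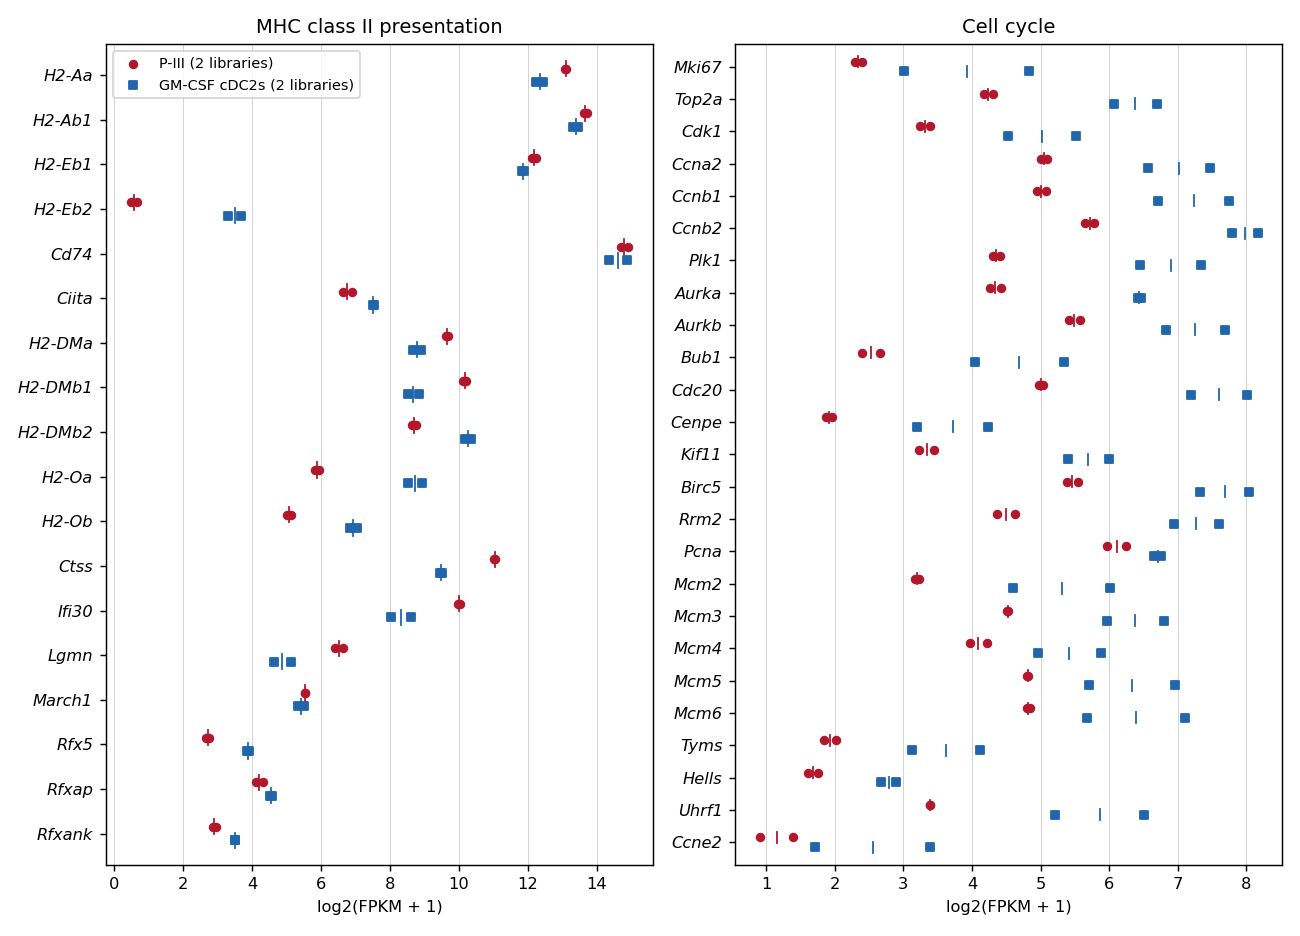
Level as log2(FPKM + 1) in each library of P-III (red circles) and GM-CSF cDC2s (blue squares) for the MHC class II list (left) and the cell cycle list (right), with a short line at the mean of each group. H2-DMb1 and Ctss are higher and H2-Oa, H2-Ob and H2-DMb2 lower in P-III, and for all 25 cell cycle genes both P-III points lie below both cDC2 points.

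Costimulatory and coinhibitory genes were lower or did not pass the rule, with 1 exception. In that list 1 of 15 genes tested were called higher and 6 lower in P-III, with a median log2 fold change of -0.43. Cd40, the receptor for T cell help, had 17.7 and 18.9 FPKM in P-III, against 44.4 and 43.8 FPKM in GM-CSF cDC2s. Cd80, a ligand of CD28, had 4.74 and 6.57 FPKM in P-III, against 22.1 and 14.4 FPKM in GM-CSF cDC2s, while Cd86, the other CD28 ligand, did not pass the rule, at -0.29. Pdcd1lg2, which encodes PD-L2, had 2.90 and 3.20 FPKM in P-III, against 12.8 and 9.81 FPKM in GM-CSF cDC2s, and Tnfsf8, the CD30 ligand, had 1.77 and 1.19 FPKM in P-III, against 7.28 and 7.12 FPKM in GM-CSF cDC2s. These 4 decreases were called with any library left out (log2 fold changes -1.23, -1.51, -1.595 and -1.73, with limma adjusted p 0.000623, 0.00306, 0.00184 and 0.00206), although Pdcd1lg2 was not called with a pseudocount of 0.1 (limma adjusted p 0.0537). Icosl, the ICOS ligand, had 35.3 and 31.6 FPKM in P-III, against 94.9 and 77.4 FPKM in GM-CSF cDC2s, and Cd274, which encodes PD-L1, had 16.2 and 17.0 FPKM in P-III, against 50.5 and 28.7 FPKM in GM-CSF cDC2s. Icosl was not called when any 1 of the 4 libraries was left out (log2 fold changes -1.41, -1.26, -1.19 and -1.48, limma adjusted p 0.111, 0.161, 0.157 and 0.0751). Cd274 was not called without P-III replicate 1 or GM-CSF cDC2s replicate 1 (log2 fold changes -1.12 and -0.76, limma adjusted p 0.0617 and 0.0952). Cd200r1, an inhibitory receptor of myeloid cells, was the 1 gene higher, with 32.0 and 34.8 FPKM in P-III, against 11.9 and 12.2 FPKM in GM-CSF cDC2s.

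Chemokine receptors showed an exchange between the groups. Of the receptors 3 of 15 genes tested were called higher and 5 lower in P-III, with a median log2 fold change of -0.16. Ccr2 and Cx3cr1, described above, were among those higher. Besides Ccr7, Ccr6, the receptor for CCL20, had 1.497 and 1.40 FPKM in P-III, against 33.8 and 39.9 FPKM in GM-CSF cDC2s. Gpr183, the oxysterol receptor that places cDC2s at the bridging channels of the spleen, had 6.70 and 6.01 FPKM in P-III, against 43.4 and 48.5 FPKM in GM-CSF cDC2s, and Cxcr3, a receptor for interferon-induced chemokines, had 4.74 and 3.52 FPKM in P-III, against 11.3 and 16.6 FPKM in GM-CSF cDC2s. Ccr6, Gpr183 and Cxcr3 were free of overlap (log2 fold change -3.95 ± 0.35 (SE), limma adjusted p 5.72e-06 for Ccr6 and log2 fold change -2.67 ± 0.39 (SE), limma adjusted p 0.000342 for Gpr183). Ccrl2, an atypical receptor, had 18.1 and 31.1 FPKM in P-III, against 77.4 and 72.7 FPKM in GM-CSF cDC2s, and was not called without P-III replicate 1 (log2 fold change -1.24, limma adjusted p 0.102).

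Chemokine ligands were higher more often than lower. In the list 7 of 15 genes tested were called higher and 3 lower in P-III, with a median log2 fold change of 1.01. Ccl9, a ligand of CCR1, had 340.4 and 307 FPKM in P-III, against 14.4 and 8.33 FPKM in GM-CSF cDC2s, and Ccl6, its neighbour in the genome, had 1258 and 1234 FPKM in P-III, against 179 and 133 FPKM in GM-CSF cDC2s. Both were separated (log2 fold change 4.76 ± 0.27 (SE), limma adjusted p 2.57e-07 for Ccl9 and log2 fold change 3.003 ± 0.23 (SE), limma adjusted p 2e-06 for Ccl6), and both were also called higher in GM-CSF than in control cDC2s, by 1.62 (limma adjusted p 0.00393) and 3.12 (limma adjusted p 2.71e-05). Ccl2, the ligand of CCR2, had 5.64 and 11.502 FPKM in P-III, against 0.789 and 0.449 FPKM in GM-CSF cDC2s. Cxcl16, a membrane-bound chemokine and scavenger of oxidized lipid, had 33.2 and 33.6 FPKM in P-III, against 13.95 and 8.05 FPKM in GM-CSF cDC2s. The genes lower in P-III were the inflammatory chemokines Ccl3, Ccl4 and Ccl5, with Ccl5 at 5.45 and 6.46 FPKM in P-III, against 52.2 and 49.8 FPKM in GM-CSF cDC2s. Ccl5 was not called when any 1 of the 4 libraries was left out (log2 fold changes -2.80, -3.01, -2.87 and -2.94, limma adjusted p 0.0992, 0.077, 0.08 and 0.0697), its fold change staying close to that with all 4 libraries (-2.91). Ccl3 was not called without P-III replicate 1 or GM-CSF cDC2s replicate 1 (log2 fold changes -1.16 and -1.10, limma adjusted p 0.223 and 0.207), and Ccl4 was not called without P-III replicate 1 or GM-CSF cDC2s replicate 1 (log2 fold changes -1.46 and -1.68, limma adjusted p 0.203 and 0.15). The count lower was thus 0 without P-III replicate 1 or without GM-CSF cDC2s replicate 1.

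Cytokines and mediators included members of the TNF family. In the list 6 of 15 genes tested were called higher and 2 lower in P-III, with a median log2 fold change of -0.12. Tnfsf13, which encodes APRIL, a survival factor of plasma cells, had 34.9 and 31.7 FPKM in P-III, against 0.764 and 0.197 FPKM in GM-CSF cDC2s. Tnfsf13b, which encodes BAFF, a survival factor of B cells, had 6.001 and 5.45 FPKM in P-III, against 0.478 and 0.0730 FPKM in GM-CSF cDC2s, and Tnfsf12, which encodes TWEAK, had 6.48 and 6.41 FPKM in P-III, against 0.354 and 0.0619 FPKM in GM-CSF cDC2s. The 3 ligands were under 1 FPKM in both cDC2 libraries (log2 fold changes 4.56, 2.42 and 2.63, with limma adjusted p 7.37e-06, 7.06e-05 and 6.36e-06). Tnfsf12 and Tnfsf13 are neighbours that can form read-through transcripts, so their split may be uncertain. Il1rn, the interleukin-1 receptor antagonist, had 17.6 and 22.0 FPKM in P-III, against 3.27 and 1.90 FPKM in GM-CSF cDC2s, and Il15 had 15.7 and 18.9 FPKM in P-III, against 7.82 and 4.13 FPKM in GM-CSF cDC2s. Tgfbi, a matrix protein induced by TGF-beta, had 440.0 and 378 FPKM in P-III, against 111 and 114 FPKM in GM-CSF cDC2s. Ptgs2, the inducible cyclooxygenase, was lower in P-III with 1.24 and 4.24 FPKM in P-III, against 50.2 and 20.1 FPKM in GM-CSF cDC2s. Il12b, a subunit of interleukin-12 and interleukin-23, had 0 and 0.0426 FPKM in P-III, against 4.44 and 0.988 FPKM in GM-CSF cDC2s, and was not called without GM-CSF cDC2s replicate 1 (log2 fold change -0.96, limma adjusted p 0.0352).

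**Figure D5:**
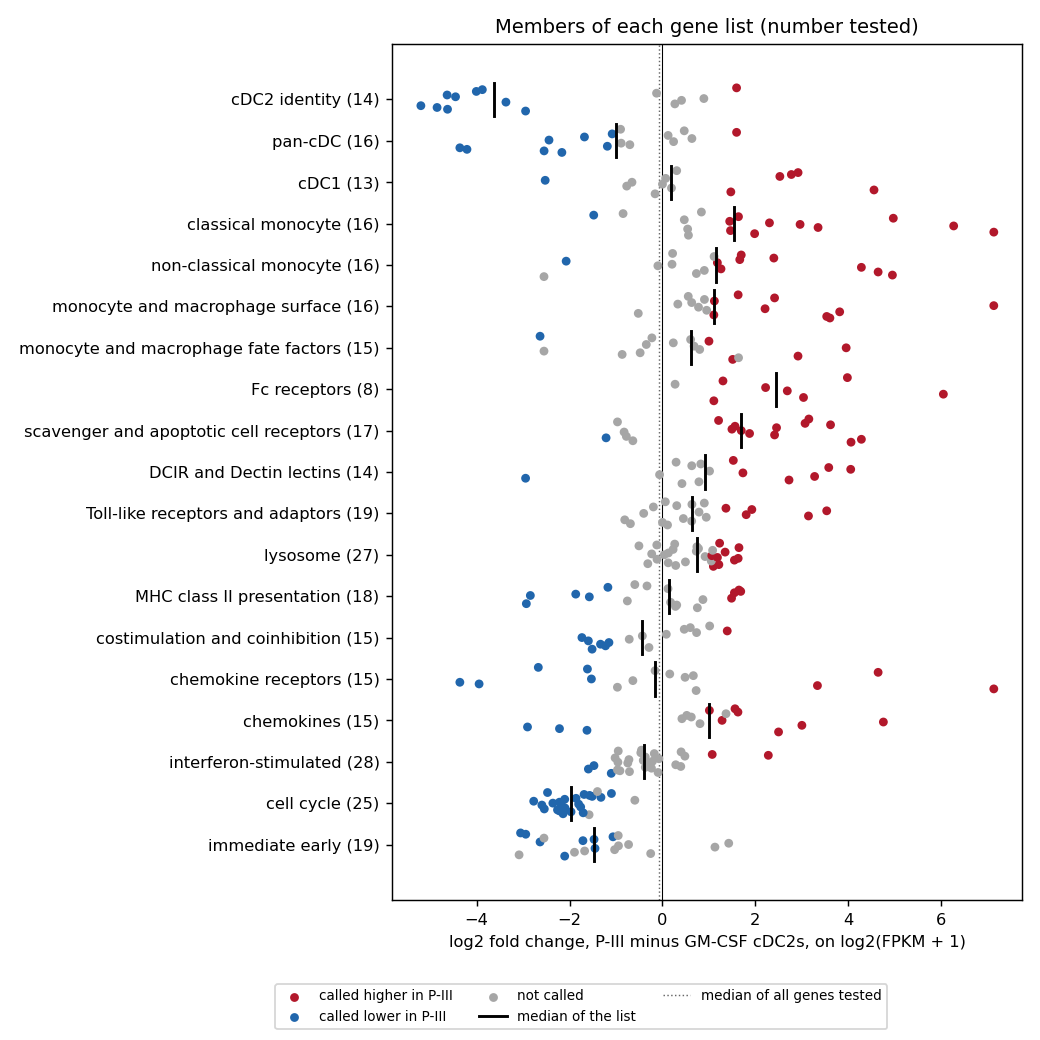
Log2 fold change, P-III minus GM-CSF cDC2s, of each gene tested (points) in the main gene lists (rows, number of genes tested in brackets). Red and blue points were called higher and lower in P-III and grey points were not called, the black bar is the median of a list and the dotted line the median of all genes tested (-0.07). The cDC2 identity list has its median at -3.62 and the Fc receptor list at 2.46.

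Cell cycle genes formed the list with the most uniform direction. In the cell cycle list 0 of 25 genes tested were called higher and 22 lower in P-III, with a median log2 fold change of -1.97. Rrm2, a subunit of ribonucleotide reductase, had 19.6 and 23.8 FPKM in P-III, against 122 and 193 FPKM in GM-CSF cDC2s. Cdc20, an activator of the anaphase-promoting complex, had 30.4 and 31.7 FPKM in P-III, against 146 and 256 FPKM in GM-CSF cDC2s, and Ccnb2, cyclin B2, had 49.3 and 53.9 FPKM in P-III, against 219.9 and 286 FPKM in GM-CSF cDC2s. In these 3 genes both cDC2 libraries lay far above both P-III libraries (log2 fold change -2.77 ± 0.27 (SE), limma adjusted p 1.19e-05 for Rrm2, log2 fold change -2.60 ± 0.27 (SE), limma adjusted p 2.31e-05 for Cdc20 and log2 fold change -2.26 ± 0.24 (SE), limma adjusted p 2.72e-05 for Ccnb2). Aurka, a spindle kinase, had 18.1 and 20.4 FPKM in P-III, against 84.4 and 86.9 FPKM in GM-CSF cDC2s. Mki67, which encodes Ki-67, had 4.26 and 3.89 FPKM in P-III, against 27.5 and 7.06 FPKM in GM-CSF cDC2s and did not pass the rule (log2 fold change -1.58 ± 0.60 (SE), limma adjusted p 0.0775). The cDC2 replicates differed, and the summed FPKM of the list was 506 and 547 in P-III, against 1686 and 2827 in GM-CSF cDC2s. The same sum was 1650.3 and 1754 in P-I, 490.0 and 493 in P-IV and 859 and 901 in control cDC2s. P-III and P-IV were therefore the low pair among these populations, and part of the gap to GM-CSF cDC2s was in the high level of treated over control cDC2s. The count lower was 17 to 21 with 1 of the 4 libraries left out, and the replication licensing gene Mcm6 was among those not called without P-III replicate 1, P-III replicate 2 or GM-CSF cDC2s replicate 2 (log2 fold changes -1.59, -1.55 and -0.86, limma adjusted p 0.113, 0.128 and 0.241).

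Notch pathway genes did not follow Dtx1. In the list 4 of 21 genes tested were called higher and 1 lower in P-III, with a median log2 fold change of 0.19. Notch1 had 2.54 and 1.96 FPKM in P-III, against 0.316 and 0.174 FPKM in GM-CSF cDC2s, and Adam10 and Psen2, proteases that cleave Notch receptors, had 40.1 and 43.2 FPKM in P-III, against 15.6 and 12.6 FPKM in GM-CSF cDC2s and 28.2 and 25.1 FPKM in P-III, against 5.34 and 4.43 FPKM in GM-CSF cDC2s. These 3 genes were higher in P-III (log2 fold change 2.23 ± 0.20 (SE), limma adjusted p 5.66e-06 for Psen2), and Dtx1 was the only gene of the list called lower.

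Of the GM-CSF receptor genes only Csf2ra passed the rule, and genes of the wider pathway list differed in both directions. In the GM-CSF receptor and STAT5 list 1 of 17 genes tested were called higher and 4 lower in P-III, with a median log2 fold change of -0.61. Csf2ra, the GM-CSF receptor alpha chain, had 341 and 300.5 FPKM in P-III, against 114.8 and 172 FPKM in GM-CSF cDC2s and was not called without P-III replicate 1 or GM-CSF cDC2s replicate 1 (log2 fold changes 1.09 and 0.90, limma adjusted p 0.0515 and 0.0583). Csf2rb, the shared beta chain, and Csf2rb2, a related gene of the list, did not pass the rule, at 0.70 and 0.99. Ccnd2, cyclin D2, was lower with 0.801 and 0.930 FPKM in P-III, against 4.25 and 3.50 FPKM in GM-CSF cDC2s. The STAT5 targets Cish and Socs2 were also called lower, and both were under 10 FPKM in every library of both groups. Cish had 0.395 and 0.612 FPKM in P-III, against 8.45 and 2.19 FPKM in GM-CSF cDC2s, and was not called without P-III replicate 1, P-III replicate 2 or GM-CSF cDC2s replicate 1 (log2 fold changes -1.77, -1.98 and -1.09, limma adjusted p 0.0931, 0.0611 and 0.153). Socs2 had 0.359 and 0.457 FPKM in P-III, against 2.30 and 3.39 FPKM in GM-CSF cDC2s, and was not called when any 1 of the 4 libraries was left out (log2 fold changes -1.39, -1.49, -1.64 and -1.23, limma adjusted p 0.15, 0.124, 0.0678 and 0.153). The count of genes lower in this list was 4 with all libraries, 1 without P-III replicate 1 or without GM-CSF cDC2s replicate 1, and 2 without P-III replicate 2. In the interferon-stimulated list 2 of 28 genes tested were called higher and 3 lower in P-III, with a median log2 fold change of -0.39. Both counts are near the shares over all genes tested, 7.83% higher and 8.74% lower. Ifitm3, a restriction factor for virus entry, had 903 and 1067 FPKM in P-III, against 177 and 229 FPKM in GM-CSF cDC2s, and it was the only increase that held without P-III replicate 2 or without GM-CSF cDC2s replicate 1.

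Lipid handling genes included several increases. In the list of lipid efflux and LXR targets 6 of 18 genes tested were called higher and 2 lower in P-III, with a median log2 fold change of 0.82. Lpl, lipoprotein lipase, had 50.1 and 59.9 FPKM in P-III, against 0.9996 and 0.350 FPKM in GM-CSF cDC2s. Pltp, phospholipid transfer protein, had 847 and 748 FPKM in P-III, against 73.6 and 121 FPKM in GM-CSF cDC2s, and Abcg1, a cholesterol exporter, had 31.6 and 31.4 FPKM in P-III, against 6.06 and 4.91 FPKM in GM-CSF cDC2s. All 3 were higher with any library left out (log2 fold change 5.08 ± 0.27 (SE), limma adjusted p 1.34e-07 for Lpl, log2 fold change 3.06 ± 0.37 (SE), limma adjusted p 6.55e-05 for Pltp and log2 fold change 2.33 ± 0.27 (SE), limma adjusted p 4.59e-05 for Abcg1). Apoe, apolipoprotein E, was lower at 49.4 and 35.4 FPKM in P-III, against 113 and 91.6 FPKM in GM-CSF cDC2s, and was not called when any 1 of the 4 libraries was left out (log2 fold changes -1.499, -1.03, -1.11 and -1.41, limma adjusted p 0.0918, 0.262, 0.195 and 0.0926). With Cd5l, which the list shares, the count lower was 0 when any 1 of the 4 libraries was left out. In the glycolysis list 4 of 18 genes tested were called higher and 1 lower in P-III, with a median log2 fold change of 0.31. Hk3, a hexokinase of myeloid cells, had 22.4 and 21.7 FPKM in P-III, against 3.49 and 2.55 FPKM in GM-CSF cDC2s, and Aldoa, aldolase A, had 442 and 410.4 FPKM in P-III, against 80.4 and 98.3 FPKM in GM-CSF cDC2s. Hk3 was not called with a pseudocount of 0.1 (limma adjusted p 0.0509). Slc2a3, the high-affinity glucose transporter GLUT3, was lower at 2.25 and 1.999 FPKM in P-III, against 37.0 and 33.2 FPKM in GM-CSF cDC2s (log2 fold change -3.53 ± 0.22 (SE), limma adjusted p 4.57e-07), and the count lower was 2 without GM-CSF cDC2s replicate 2.

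Among paired inhibitory and activating receptors, most did not pass the rule. In the list of Siglecs, SIRP and CD300 receptors 8 of 23 genes tested were called higher and 4 lower in P-III, with a median log2 fold change of 0.56. Lilrb4a, an inhibitory immunoglobulin-like receptor, had 131 and 133 FPKM in P-III, against 6.22 and 2.16 FPKM in GM-CSF cDC2s. Pilra and Pilrb1, an inhibitory and activating pair, had 188 and 173 FPKM in P-III, against 15.3 and 18.2 FPKM in GM-CSF cDC2s and 136 and 131 FPKM in P-III, against 17.2 and 15.6 FPKM in GM-CSF cDC2s. Cd22 and Siglecg, inhibitory Siglecs best known from B cells, were lower with 3.69 and 2.43 FPKM in P-III, against 55.5 and 49.5 FPKM in GM-CSF cDC2s and 25.7 and 23.8 FPKM in P-III, against 151 and 131 FPKM in GM-CSF cDC2s. Each of these 5 genes was free of overlap (log2 fold change 4.80 ± 0.38 (SE), limma adjusted p 2.91e-06 for Lilrb4a and log2 fold change -3.74 ± 0.25 (SE), limma adjusted p 7.28e-07 for Cd22). In the integrin list 5 of 16 genes tested were called higher and 2 lower in P-III, with a median log2 fold change of 0.60. Itga5, the fibronectin receptor alpha chain, had 14.6 and 12.1 FPKM in P-III, against 1.58 and 2.08 FPKM in GM-CSF cDC2s, and was called whichever library was left out. The count of integrins lower was 1 without P-III replicate 2 and 0 without GM-CSF cDC2s replicate 1. In the complement list 4 of 13 genes tested were called higher and 0 lower in P-III, with a median log2 fold change of 0.64. C3, the central complement component, had 11.47 and 12.8 FPKM in P-III, against 0.870 and 0.253 FPKM in GM-CSF cDC2s. In the NADPH oxidase list 2 of 8 genes tested were called higher and 1 lower in P-III, with a median log2 fold change of 0.44. Cyba, a membrane subunit of the oxidase, had 861 and 912 FPKM in P-III, against 389 and 429.7 FPKM in GM-CSF cDC2s, and was not called once a trend on transcript length was removed (log2 fold change 0.82), while Hvcn1, a proton channel, was lower at 8.6005 and 8.99 FPKM in P-III, against 55.5 and 55.0 FPKM in GM-CSF cDC2s.

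Immediate early genes, which rise within minutes of cell handling or activation, were in part lower in P-III and some were uneven between the cDC2 libraries. In that list 0 of 19 genes tested were called higher and 8 lower in P-III, with a median log2 fold change of -1.47. The summed FPKM of the list was 3533 and 4840 in P-III, against 22114 and 12062 in GM-CSF cDC2s. The same sum was 1684 and 3146 in P-I, 7497 and 8224 in P-IV and 19201 and 13849 in DC-Xs. A low sum was thus shared by the CD115hi sorts. Each DC-X library lay above each of theirs, although DC-Xs are mostly P-IV, and the part of the sort in this gap was not tested. Fos had 368 and 460.1 FPKM in P-III, against 1878 and 1675 FPKM in GM-CSF cDC2s. Hspa1a, an inducible heat shock protein, had 245 and 385 FPKM in P-III, against 3149 and 1787 FPKM in GM-CSF cDC2s, and lies beside the near-identical copy Hspa1b, so their values are uncertain. Fosb had 0.790 and 2.54 FPKM in P-III, against 89.2 and 4.08 FPKM in GM-CSF cDC2s, so that GM-CSF cDC2s replicate 1 stood above the other 3 libraries. The count lower was 8 with all libraries, 4 without GM-CSF cDC2s replicate 1 or without P-III replicate 1 and 15 without GM-CSF cDC2s replicate 2. Cd83, Atf3, Ptgs2, Ccl3 and Ccl4 were also highest in GM-CSF cDC2s replicate 1, and the part of cell handling in them was not tested.

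Markers of other cells that a splenic gate could hold were summed over each whole list. Red pulp macrophage markers had 978 to 1092 FPKM in P-III, against 529 to 551 FPKM in GM-CSF cDC2s, with 10 and 11 of 12 genes at 1 FPKM. Most of that gap was in Trf, which encodes transferrin, with 589 and 514 FPKM in P-III, against 109 and 75.6 FPKM in GM-CSF cDC2s. B cell markers had 59.83 to 59.96 FPKM in P-III, against 82.3 to 84.4 FPKM in GM-CSF cDC2s, with 8 and 6 of 11 genes at 1 FPKM, and Pax5 was listed at 0 in cDC2s. Cd79a, a chain of the B cell receptor, had 16.5 and 16.6 FPKM in P-III, against 0.147 and 0.852 FPKM in GM-CSF cDC2s, while the lower B cell sum of P-III rested on Cd22, described above. Natural killer cell markers had 39.6 to 43.3 FPKM in P-III, against 8.96 to 14.3 FPKM in GM-CSF cDC2s. This gap was in Klrk1, which encodes NKG2D, with 33.6 and 36.7 FPKM in P-III, against 4.84 and 3.10 FPKM in GM-CSF cDC2s, the 1 of 6 natural killer cell genes tested that was called. T cell markers had 12.4 to 13.3 FPKM in P-III, against 30.7 to 31.5 FPKM in GM-CSF cDC2s. Neutrophil markers had 14.8 to 18.8 FPKM in P-III, with 8 of 13 genes at 0 including Ly6g, S100a8 and S100a9, against 7.89 to 15.9 FPKM in GM-CSF cDC2s, with 3 at 0 including Ly6g. Plasma cell markers had 187 to 208 FPKM in P-III, against 87.3 to 114 FPKM in GM-CSF cDC2s, nearly all of it from Xbp1, a factor of the secretory pathway that did not pass the rule, with 198 and 176 FPKM in P-III, against 109 and 83.5 FPKM in GM-CSF cDC2s. Plasmacytoid dendritic cell markers had 55.6 to 70.2 FPKM in P-III, against 34.5 to 38.0 FPKM in GM-CSF cDC2s. Markers of basophils, mast cells and eosinophils had 7.72 to 8.74 FPKM in P-III, against 13.9 to 31.3 FPKM in GM-CSF cDC2s. Erythroid markers had at most 9.64 FPKM in P-III and 2.09 FPKM in GM-CSF cDC2s, and platelet markers at most 0.486 and 0.571 FPKM. The part of such cells in the differences above was not tested.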

How the data were processed

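Populations were sorted from spleens of C57BL/6 mice, libraries were made with a SMARTer Ultra low input kit and sequenced on a NovaSeq instrument. Per the submitters' processing notes, bcl2fastq 1.8.4, HISAT2 2.1.0, StringTie 1.3.4d and the mouse build mm10 were used. The deposited values are FPKM by the authors, in a single table that holds 24532 genes, 16 libraries and 0 other per-sample columns, without counts. Depth is not given. Low FPKM values multiplied by transcript length (GENCODE M21) showed only weak steps (24.4% to 36.0% of values within 0.05 of a whole step in the 4 libraries), so counts were not recovered and no count test was run.

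Groups came from the sample labels. Values were tested as log2(FPKM + 1), pseudocount 1, with limma 3.58.1 in R 4.3.3 (limma-trend, 8 group means, 16 libraries, 8 residual degrees of freedom, Benjamini-Hochberg adjustment over all 11335 genes with FPKM of at least 1 in 2 libraries). The scale understates the change of low genes, and errors beside fold changes are standard errors of this fit. The test was checked on simulated data. With 2 against 2 libraries an exact permutation test cannot go below 0.333, so none is given. An FPKM of 0 can be a failed estimate, and no fold is given against a group listed at 0.

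Genes named are, first, the 12 largest increases and 12 largest decreases among genes called, free of overlap and with a mean FPKM of at least 20 in the higher group, leaving out predicted names. Second are members of 39 gene lists (6 of identity, 23 of function, 10 of other cells), and last the genes of the sort gates. Some members of these lists are counted but not reported here by name. Members and lists were chosen with earlier results of these data known. Summaries and figures were made in Python 3.11.15 (pandas 2.3.3, NumPy 2.4.6, matplotlib 3.10.9). Alternatives were pseudocount 0.1, no filter, an FPKM minimum of 10, quantile and median-of-ratios scaling, fits on 4 or 12 libraries, library weights, a replicate block, removal of a trend on transcript length, and leaving out each library.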

Additional observations from a re-analysis of the deposited data

How the results depend on the processing

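With all 4 libraries 1878 genes were called, 887 higher and 991 lower in P-III. A pseudocount of 0.1 gave 2100 genes, no filter on low values 1700, an FPKM minimum of 10 1328, quantile normalization 1868, median-of-ratios scaling 1866, the 4 libraries alone 1822, the 12 GM-CSF libraries 1960, library weights 1995 and removal of the length trend 1873. Leaving out 1 library gave 1429 to 1756 genes called, 710 to 834 higher and 694 to 922 lower. Of the 1878 genes, 1381 were also called without P-III replicate 1, 1413 without P-III replicate 2, 1528 without GM-CSF cDC2s replicate 1 and 1476 without GM-CSF cDC2s replicate 2, and none of these changed direction. Under median-of-ratios scaling the median log2 fold change was 0.01 in place of -0.07, and 53.6% of calls were higher in place of 47.2%. Replicate numbers did not pair the samples (correlation over genes of the replicate differences -0.18), and the replicate block gave 1955 genes, 911 higher and 1044 lower. The crossed pairing, chosen after seeing the data, gave 1957 genes. Genes that did not pass the rule changed sign under quantile normalization, at log2 fold changes of -0.32 for H2-Aa, -0.13 for H2-Ab1, -0.52 for H2-Eb1, 0.00 for Cd74 and -0.020 for Itgax, and leaving out a library gave -0.085 to 0.44 for Cd74. Of the 164 genes called and named here, 138 were called whichever of the 4 libraries was left out. The depth of the libraries is not given, which limits statements on genes near 0.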

Other observations

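Among all genes of the table, 2 had at least 5 FPKM in both P-III libraries and were listed at 0 in both GM-CSF cDC2 libraries, and 0 showed the reverse. These were F13a1, coagulation factor XIII subunit A, and Kctd12, an auxiliary subunit of GABA-B receptors. Kctd12 had 23.8 and 23.6 FPKM in P-III and was also listed at 0 in both libraries of P-I, P-IV, DC-Xs and control cDC2s. It was not at 0 in every cDC1 library. A gene at a steady level in P-III and at an exact 0 in its neighbours P-I and P-IV can be a failed estimate in those libraries. Kctd12 was therefore given no fold, and whether its zeros are failed estimates was not tested.

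Psap, which encodes prosaposin, the precursor of lysosomal activator proteins, had 704 and 1968 FPKM in P-III, against 1006 and 307 FPKM in GM-CSF cDC2s. It varied almost 3-fold or more within each group and did not pass the rule (log2 fold change 1.08 ± 0.85 (SE), limma adjusted p 0.407), unlike Lamp1 and Ctss of the same list, whose replicates were close.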
